A study of Mus musculus with 18 samples.

Results

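The glucocorticoid genes of the mouse heart described here are 10 rows of the deposited tables: the hormone receptors Nr3c1 and Nr3c2, the activating enzyme Hsd11b1, and the response genes Zbtb16, Fkbp5, Tsc22d3, Sgk1, Klf9, Mt1 and Mt2. They were selected by name from 23457 genes in the count table, and all 10 are also among the 23396 genes of the FPKM table. The choice was made on earlier results of the same hearts, in which Zbtb16 stood out. The difference of Zbtb16 between PLC and blank hearts is therefore a description, and its false discovery rates are given only to show where the fit over the whole table placed it.

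Hearts came from 18 male C57BL/6 mice aged 17 weeks, 6 per vector. All mice had received an adeno-associated virus, serotype 6, by vein. It carried PLCβ1b (rAAV6-PLCβ1b), the splice variant PLCβ1a (rAAV6-PLCβ1a), or a promoter with no protein product (rAAV6-blank), so the blank hearts were also exposed to virus. PLCβ1b lowers contractility of the heart, and PLCβ1a was the variant without that effect. Each heart is 1 mouse and is named by its number. Blank mice were numbered 26 to 36 and PLC mice 4 to 21, and what the numbers stand for is not stated. A difference between these blocks of numbers cannot be told apart from one between blank and PLC vectors. The labels give both ventricles as the tissue, whereas the methods name the left ventricle.

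Glucocorticoids (corticosterone in the mouse) enter the cell and bind the glucocorticoid receptor, which moves to the nucleus and binds DNA at short inverted repeats called glucocorticoid response elements. The mineralocorticoid receptor binds the same hormone. Hsd11b1 makes the active hormone from its inactive keto form inside cells. The target genes include brakes on the pathway itself, such as Fkbp5, a chaperone partner that lowers hormone binding by the receptor, and mediators of hormone action such as Tsc22d3. In the adult heart both receptors are expressed in muscle cells. Blood levels of the hormone follow the time of day and rise with stress.

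Promoters were found for 8 of the 10 genes in a RefSeq table of the GRCm38.p6 build, which has no entry for Zbtb16 or Nr3c1. The 250 bases before each listed start were searched on both strands for the response element core ACANNNTGT, for its half-site TGTTCT, and for the metal response element cores TGCGCNC and TGCACNC. Of all 32851 promoters in the table, 5.84% held the first of these, 16.1% the second, 12.5% the third and 10.4% the last. Sgk1, Mt1 and Mt2 are shown because they varied most closely together from heart to heart. Of the 6 Sgk1 starts, the 1 with the most matches (5) is printed. The shares are per promoter, and a gene with 6 starts was searched 6 times. Capitals mark the letters of every match, on either strand.
Sgk1, 1 of 6 listed starts, chr10:21993640-21993889, plus strand: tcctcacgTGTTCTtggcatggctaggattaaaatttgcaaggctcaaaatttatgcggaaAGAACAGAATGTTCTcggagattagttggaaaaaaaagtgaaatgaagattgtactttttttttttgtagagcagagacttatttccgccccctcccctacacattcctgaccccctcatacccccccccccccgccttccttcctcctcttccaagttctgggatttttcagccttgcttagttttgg
Mt1, chr8:94178839-94179088, plus strand: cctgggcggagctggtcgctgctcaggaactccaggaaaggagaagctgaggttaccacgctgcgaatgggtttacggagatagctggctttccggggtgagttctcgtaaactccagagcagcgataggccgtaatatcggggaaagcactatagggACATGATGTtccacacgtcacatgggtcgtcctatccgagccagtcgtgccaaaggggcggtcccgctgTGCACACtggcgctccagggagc
Mt2, chr8:94172368-94172617, plus strand: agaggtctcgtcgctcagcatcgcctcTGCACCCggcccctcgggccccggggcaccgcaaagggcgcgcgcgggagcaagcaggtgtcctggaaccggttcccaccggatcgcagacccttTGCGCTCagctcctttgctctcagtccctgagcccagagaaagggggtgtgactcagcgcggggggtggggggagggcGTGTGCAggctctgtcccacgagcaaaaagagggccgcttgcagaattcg

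In the Sgk1 window, a pair of inverted half-sites with 3 bases between them begins 189 bases before the start, and the core beginning 186 bases before the start lies inside it. A complete pair of this kind stands in 3 of the 32851 promoters. A further half-site begins 242 bases before the Sgk1 start. In Mt1 the core begins 92 bases before the start and a TGCACNC match 23 bases before it. Mt2 held 3 metal element matches, 223, 128 and 50 bases before its start, and no response element core. Of the other Sgk1 starts 1 held the core and 2 a half-site each. Among the other members, Tsc22d3 held a half-site at 1 of its 3 starts, Nr3c2 a TGCGCNC and Hsd11b1 a TGCACNC match, and the windows of Fkbp5 and Klf9 held none of these letters. A match is a string of letters, not evidence that a protein binds there.

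Total counts ran from 13246339 to 24155465 per heart, of which 3908354 to 7591558 fell on nuclear genes. All 10 members passed the count filter, with mean counts per heart between 59.1 for Mt2 and 1258 for Nr3c1. The ventricular muscle markers Myh6, Tnnt2, Tnni3, Actc1, Myl2 and Myl3 summed to between 14497 and 17559 FPKM in every heart. In bulk tissue, fewer cells of a type and less RNA per cell cannot be told apart. Blank heart 30 stood apart in the circadian clock genes: 13 of the 15 measured lay outside the range of the other 17 hearts in CPM (counts scaled to library size after TMM normalization), 5 above it and 8 below. Arntl, which drives the clock, had 13.3 CPM there and 0.989 to 5.27 in the other hearts, and its counterpart Dbp had 5.48 against 17.1 to 40.8. The same heart was the highest of 18 for Zbtb16 and Fkbp5 and the lowest for Nr3c2. The fold changes of Zbtb16, Fkbp5, Tsc22d3 and Nr3c2 against blank are given with and without it. Correlations taken as deviations from group means are given only with it.

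Levels between genes were compared in FPKM, which scales fragments to gene length and library size. In blank hearts the median was highest for Mt1 (79.8 FPKM), followed by Tsc22d3 (30.1), Klf9 (19.8), Sgk1 (14.6), Nr3c1 (12.7), Zbtb16 (12.6), Mt2 (9.06), Hsd11b1 (5.73), Nr3c2 (4.56) and Fkbp5 (2.41). The 6 blank hearts of Mt1, Tsc22d3, Klf9 and Sgk1 did not overlap between one gene and the next in this order, nor did those of Mt2 and Hsd11b1. The neighbours Sgk1 and Nr3c1, Nr3c1 and Zbtb16, Zbtb16 and Mt2, Hsd11b1 and Nr3c2, and Nr3c2 and Fkbp5 did overlap. The metallothionein transcripts are short, with 542 exon bases for Mt1 and 556 for Mt2, so their FPKM depend on how fragment length was treated.

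**Figure D1:**
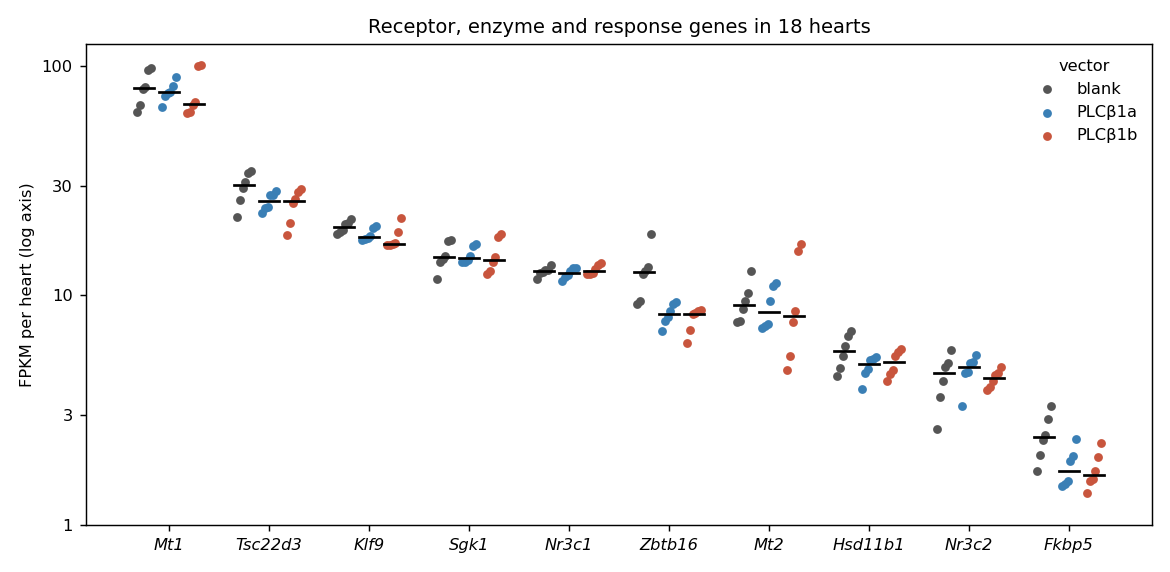
FPKM (log axis) of the 10 genes in each of 18 hearts, ordered by median in blank hearts. Points are hearts coloured by vector and lines are group medians. Mt1 lay highest and Fkbp5 lowest, and Zbtb16 showed the widest step from blank to PLC hearts.

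The receptors were nearly level across the groups. Nr3c1 encodes the glucocorticoid receptor (chromosome 18, 39410545 to 39487245 of mm10). Its lowest, median and highest CPM were 65.3, 67.7 and 70.8 in blank hearts, 63.6, 67.3 and 70.8 in PLCβ1a hearts and 67.6, 69.9 and 71.9 in PLCβ1b hearts. The groups overlapped throughout. The log2 fold change was 0.04 for PLCβ1b against blank (95% interval -0.04 to 0.12) and -0.01 for PLCβ1a against blank (-0.09 to 0.06). From heart to heart its CPM varied 1.13-fold over all 18, and its biological coefficient of variation, edgeR's estimate of spread beyond counting, was 0.0485. Only 2.06% of the genes tested had a value that low or lower.

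Nr3c2, the mineralocorticoid receptor (chromosome 8, 76902508 to 77243639), varied more. Blank hearts had 10.2, 15.6 and 18.9 CPM as lowest, median and highest, PLCβ1a hearts 12.7, 17.1 and 18.5, and PLCβ1b hearts 13.5, 15.5 and 17.5. Both the lowest and the highest of the 18 hearts were blank hearts, 30 and 36. The fold change was 0.04 on the log2 scale for PLCβ1b (-0.22 to 0.30) and 0.14 for PLCβ1a (-0.12 to 0.40). Without blank heart 36 these were 0.12 and 0.22, and without blank heart 30 they were -0.05 and 0.05.

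Hsd11b1, the enzyme that makes active hormone (chromosome 1, 193221641 to 193264045), had 4.66, 5.88 and 7.08 CPM in blank hearts, 4.32, 5.25 and 5.66 in PLCβ1a hearts and 4.36, 5.29 and 5.85 in PLCβ1b hearts. Of the 6 blank hearts, 3 lay above all 12 PLC hearts and the others overlapped them. The log2 fold change was -0.19 for PLCβ1b (standard error 0.10, interval -0.39 to 0.00497) and -0.23 for PLCβ1a (standard error 0.10, interval -0.43 to -0.03). The FDR, the adjusted p over all 12281 genes tested in edgeR's quasi-likelihood model, was 0.686 and 0.491.

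Among the members, Zbtb16 differed most between PLC and blank hearts. It encodes a zinc finger repressor, also called PLZF, whose transcription rises with glucocorticoids in many cells (chromosome 9, 48654297 to 48835945, minus strand, 7 exons). Blank hearts had 43.0, 52.9 and 81.5 CPM as lowest, median and highest, PLCβ1a hearts 31.4, 38.4 and 42.8, and PLCβ1b hearts 29.2, 37.2 and 40.6. All 12 PLC hearts therefore lay below all 6 blank hearts, by a margin as narrow as 42.8 against 43.0. Of the 12281 genes tested, 3 had this position (0.0244%). The others were Baiap2 and Chd6, named after their values were seen. For members and list genes other than Zbtb16, counts of hearts outside another group's range stand without a share over all genes. That share was not computed, so those counts are descriptions of single genes. In FPKM blank and PLCβ1a hearts touched, and blank and PLCβ1b hearts did not. Blank hearts had 9.19, 12.6 and 18.4, PLCβ1a hearts 7.02, 8.31 and 9.33, and PLCβ1b hearts 6.18, 8.33 and 8.60. There, 11 of the 12 PLC hearts lay below all blank hearts.

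Blank hearts averaged 55.1 CPM, PLCβ1a hearts 38.2 and PLCβ1b hearts 35.5. On the log2 scale the fold change was -0.64 for PLCβ1b (standard error 0.14, interval -0.95 to -0.34) and -0.54 for PLCβ1a (standard error 0.14, interval -0.84 to -0.24), a level 1.56-fold and 1.45-fold below that of blank hearts. These 2 values share the blank hearts. Between the PLC groups the difference was -0.11 (interval -0.42 to 0.20), and no difference was detectable within that range.

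Whether Zbtb16 passed an FDR below 0.1 depended on how the spread was estimated. In the quasi-likelihood model with robust estimation, which draws the spread of unusually variable genes less towards that of other genes, its FDR was 0.188 for PLCβ1b and 0.256 for PLCβ1a, and it was not called. That model called 12 genes (0.0977%) for PLCβ1b and 17 (0.138%) for PLCβ1a. With the default estimation, chosen after seeing the data, the FDR was 0.0209 and 0.0758 and Zbtb16 was called in both. That fit called 12 genes (0.0977%) and 10 (0.0814%). DESeq2 gave 0.0217 and 0.120, with 24 genes called (0.195%) and 23 (0.187%). edgeR's exact test gave 1.9e-04 and 0.0136, with 22 (0.179%) and 45 genes called (0.366%).

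Blank heart 30 held the highest Zbtb16, 81.5 CPM, while the next blank heart had 56.3. Without it the fold change was -0.50 for PLCβ1b and -0.39 for PLCβ1a. The FDR in its absence was 0.146 and 0.273 with robust estimation, 0.00987 and 0.130 with the default, 2.2e-04 and 0.0482 in DESeq2, and 2.3e-04 and 0.0312 in the exact test. The difference was thus smaller without this heart. For PLCβ1b the 3 programs that had called Zbtb16 still did, and for PLCβ1a the default estimation no longer did while DESeq2 now did. With the default estimation, the call for PLCβ1b held in 18 of 18 fits that left out 1 heart and the call for PLCβ1a in 8 of 18. What part the clock state of heart 30 had in its Zbtb16 level was not tested.

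**Figure D2:**
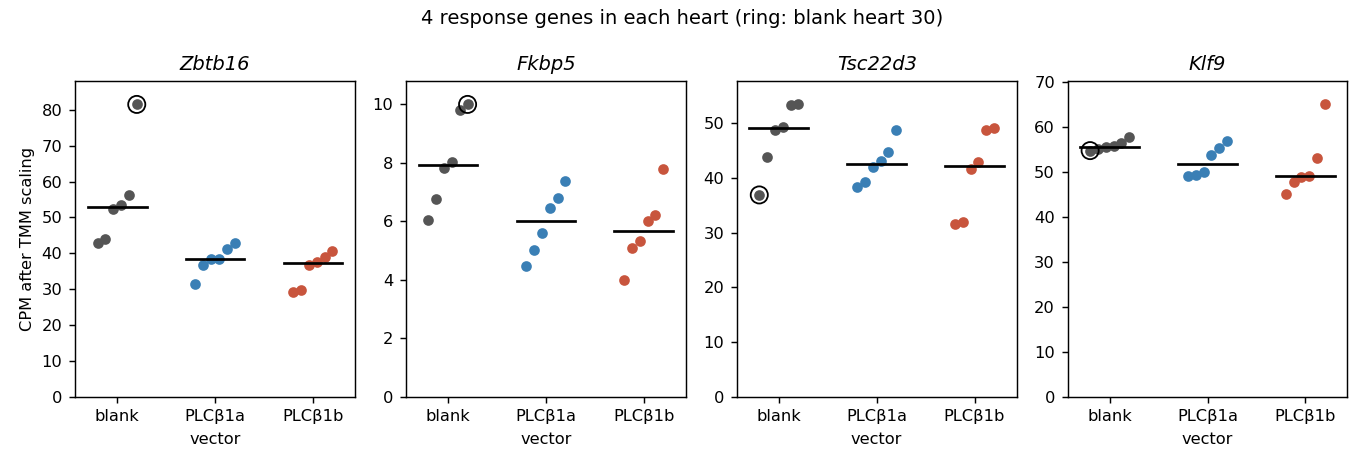
CPM of Zbtb16, Fkbp5, Tsc22d3 and Klf9 in each heart by vector, on axes that start at 0. Points are hearts, lines are group medians, and the ring marks blank heart 30. For Zbtb16 the PLC hearts (29.2 to 42.8 CPM) lay below the blank hearts (43.0 to 81.5), whereas the groups overlapped for the other genes.

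Fkbp5, the chaperone partner that restrains the receptor (chromosome 17, 28399095 to 28486112), came next among the members in the size of its fold change. Blank hearts had 6.04, 7.91 and 9.98 CPM, PLCβ1a hearts 4.46, 6.02 and 7.37, and PLCβ1b hearts 3.99, 5.66 and 7.79. Of the 12 PLC hearts 7 lay below all blank hearts, and the rest overlapped them. The log2 fold change was -0.51 for PLCβ1b (standard error 0.16, FDR 0.402) and -0.43 for PLCβ1a (standard error 0.16, FDR 0.416), neither called. Over all programs run on the 18 hearts the lowest FDR was 0.168 for PLCβ1b and 0.229 for PLCβ1a. Between the PLC groups it was -0.07 (interval -0.42 to 0.27). Without blank heart 30 the values against blank were -0.44 and -0.36. Counts behind Fkbp5 were 79 to 183 per heart.

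Tsc22d3, which encodes the leucine zipper protein GILZ, a mediator of the anti-inflammatory action of the hormone (chromosome X, 140539529 to 140600522), had 36.9, 49.1 and 53.4 CPM in blank hearts, 38.4, 42.6 and 48.7 in PLCβ1a hearts and 31.6, 42.2 and 49.1 in PLCβ1b hearts. The 3 groups overlapped, with PLCβ1b hearts 17 and 4 the lowest of all. Its log2 fold change was -0.22 for PLCβ1b (interval -0.48 to 0.03) and -0.16 for PLCβ1a (-0.41 to 0.10). Without blank heart 30, the third lowest of the 18, these were -0.29 and -0.22.

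Klf9, a zinc finger factor also induced by thyroid hormone (chromosome 19, 23141226 to 23166911, overlapping Mir1192 on the same strand), was tightly grouped in blank hearts, at 54.8, 55.7 and 57.9 CPM. PLCβ1a hearts had 49.1, 51.9 and 57.1, and PLCβ1b hearts 45.2, 49.1 and 65.1. Of the 12 PLC hearts, 9 lay below all blank hearts, but PLCβ1b heart 16 lay above them all. The log2 fold change was -0.12 for PLCβ1b (interval -0.25 to 0.00483, FDR 0.688) and -0.10 for PLCβ1a (-0.22 to 0.03, FDR 0.705). Without PLCβ1b heart 16 the first was -0.20 with an FDR of 0.105.

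Sgk1, a kinase that raises sodium channel and transporter activity (chromosome 10, 21882184 to 21999902), did not separate the groups. It had 25.0, 30.9 and 35.4 CPM in blank hearts, 28.5, 31.9 and 35.0 in PLCβ1a hearts and 25.1, 30.8 and 40.8 in PLCβ1b hearts. The group medians differed by far less than the hearts within a group. Its log2 fold change was 0.03 for PLCβ1b (interval -0.20 to 0.26) and 0.04 for PLCβ1a (-0.19 to 0.27).

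The metallothioneins Mt1 and Mt2 encode small proteins that bind zinc and copper and are induced by metals as well as by glucocorticoids, and they lie side by side on chromosome 8 (94179089 to 94180327 and 94172618 to 94173567). Mt1 had 22.2, 27.4 and 31.5 CPM in blank hearts, 22.0, 26.9 and 29.7 in PLCβ1a hearts and 20.0, 23.8 and 35.9 in PLCβ1b hearts. Mt2 had 2.70, 3.10 and 4.13 CPM in blank hearts, 2.21, 3.13 and 3.73 in PLCβ1a hearts and 1.31, 2.84 and 6.28 in PLCβ1b hearts. For both genes the PLCβ1b hearts held the extremes of all 18: heart 4 was lowest, and hearts 16 and 8 were highest. Mt1 had a log2 fold change of -0.06 for PLCβ1b (interval -0.35 to 0.24) and -0.03 for PLCβ1a (-0.33 to 0.26). Mt2 had 0.07 for PLCβ1b (-0.55 to 0.69) and -0.03 for PLCβ1a (-0.66 to 0.60), and its sign for PLCβ1b turned in FPKM. The counts of Mt2 were 30 to 101 per heart. Its biological coefficient of variation was 0.323, higher than for any other member, and changes smaller than these intervals were not detectable among these hearts.

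**Figure D3:**
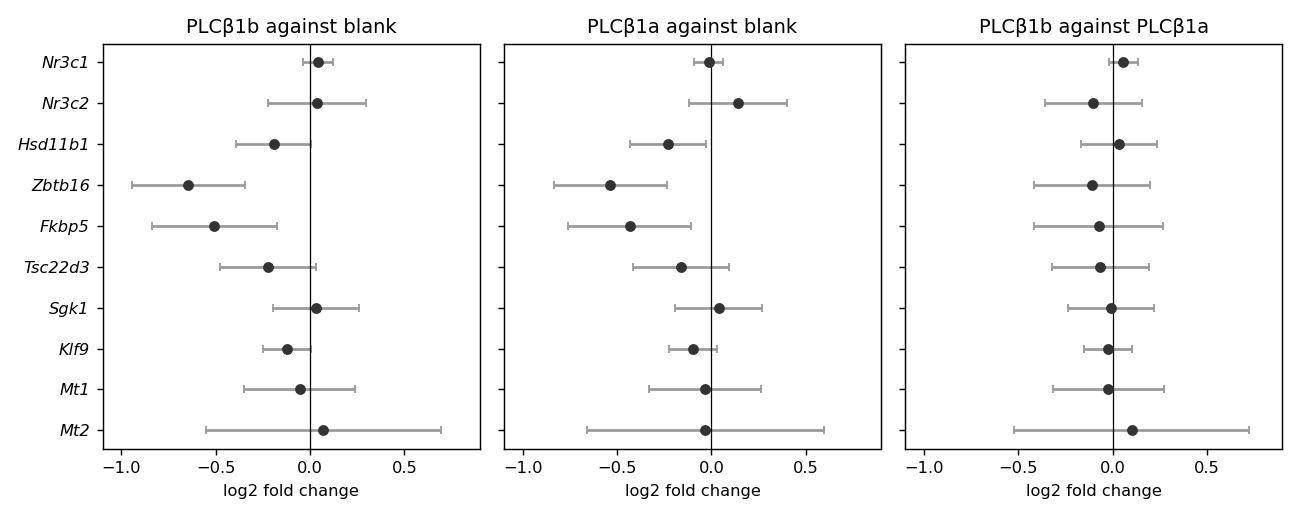
Log2 fold change of each gene (points) with its 95% interval (bars) from edgeR's quasi-likelihood model with robust estimation, in the 3 comparisons. The intervals of Zbtb16 and Fkbp5 lay below 0 against blank hearts in both PLC groups, that of Hsd11b1 only for PLCβ1a, and all 10 spanned 0 between the PLC groups.

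Over the 10 members, none was called in any comparison by the quasi-likelihood model with robust estimation, with FDR of 0.188 to 0.974 for PLCβ1b and 0.256 to 0.989 for PLCβ1a. At an unadjusted p below 0.05 there were 2 for PLCβ1b (Zbtb16 and Fkbp5, both lower) and 3 for PLCβ1a (the same 2 and Hsd11b1, all lower), where 7.41% and 8.58% of all genes tested lay below that p. Between the PLC groups there were 0, against 4.42% of all genes. No gene was called in that comparison (0%), and with the default estimation only Plcb1 was (0.00814%), the gene carried by the vectors. DESeq2 and the exact test also called no member there. The median log2 fold change of the members was -0.09 for PLCβ1b and -0.06 for PLCβ1a, and -0.02 between the PLC groups. Over all genes the signed median was -8.9e-04, -0.0018 and 8.8e-04, and the median size without sign was 0.07, 0.07 and 0.06. The log2 fold change was below 0 for 6, 8 and 7 of the 10 members, and for 50.4%, 50.6% and 49.5% of all genes. Both comparisons with blank share the same blank hearts and are not separate evidence.

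Other genes of the pathway were read from lists chosen with earlier results known. Of 36 further glucocorticoid response genes 33 were tested, and none was called against blank in either PLC group, where the FDR was at least 0.186 for PLCβ1b and 0.256 for PLCβ1a. At an unadjusted p below 0.05 there were 4 for PLCβ1b (3 lower, 1 higher) and 6 for PLCβ1a (4 lower, 2 higher). Over all genes tested 7.41% and 8.58% lay below that p. The median log2 fold change of the list was -0.03 for both, against -8.9e-04 and -0.0018 over all genes. Pik3r1, a regulatory subunit of PI3 kinase, had 95.5, 102.7 and 125.6 CPM as lowest, median and highest in blank hearts and 79.5, 91.0 and 96.6 in PLCβ1b hearts. The estimate was -0.23 on the log2 scale (FDR 0.186), and DESeq2 called it with an FDR of 0.0960. Fam107a, an actin-binding protein, had 1.91, 2.35 and 3.17 CPM in blank hearts, 1.26, 1.64 and 1.89 in PLCβ1a hearts and 0.832, 1.64 and 2.39 in PLCβ1b hearts. All PLCβ1a hearts lay below all blank hearts, and its log2 fold change was -0.59 there (FDR 0.256) and -0.64 for PLCβ1b (FDR 0.196).

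Klf15, a factor that governs amino acid and lipid use in the heart, had 17.3, 20.4 and 21.7 CPM in blank hearts and 14.5, 15.8 and 20.5 in PLCβ1b hearts. The estimate on the log2 scale was -0.28 for PLCβ1b (FDR 0.297) and -0.22 for PLCβ1a (FDR 0.380). Estimates of the response genes lay on both sides of 0: Angptl4, a secreted inhibitor of lipoprotein lipase, had the highest fold change of the list, 0.91 for PLCβ1a (FDR 0.474). Of 22 genes for receptors, chaperones and coregulators, a list that includes the member Hsd11b1, 21 were tested and none was called. At an unadjusted p below 0.05 there were 0 for PLCβ1b and 2 for PLCβ1a (Hsd11b1, lower, and the drug exporter Abcb1a, higher). Of 10 further metal response genes 6 were tested and none was called, with 2 lower for PLCβ1b at an unadjusted p below 0.05, the zinc transporter Slc39a14 and Gclc, an enzyme of glutathione synthesis. Mt4 was listed at 0 FPKM in all hearts. Of 16 relatives of the members 13 were tested and none was called. At an unadjusted p below 0.05 Klf15, which is also on the list of response genes, was lower in both PLC groups. Klf13 was lower for PLCβ1a. Over all genes tested 7.41% lay below that p for PLCβ1b and 8.58% for PLCβ1a.

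The members fell into pairs of very different likeness across hearts, judged by Pearson's r of log2 CPM over 18 hearts. Over the 45 pairs r ran from -0.50 to 0.91 with a median of 0.36, and 16 pairs lay above 0.5. These are descriptions, since the hearts share the vector groups and the scaling of their libraries. Sgk1, Mt1 and Mt2 varied together: r was 0.91 for Sgk1 with Mt1, 0.87 for Mt1 with Mt2 and 0.83 for Sgk1 with Mt2. Taken as deviations from the group means these were 0.93, 0.87 and 0.84, within 0.02 of the values over all hearts. Klf9 went with Mt2 (0.74) and Fkbp5 (0.74). All 16 negative pairs held Nr3c1 or Nr3c2, the lowest being Nr3c2 with Fkbp5 (-0.50, and -0.29 without the 2 hearts farthest from the median). This depended on the scaling: in log2 FPKM 9 of the 17 pairs with a receptor were negative, and Nr3c1 with Nr3c2 turned from -0.16 to 0.42.

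**Figure D4:**
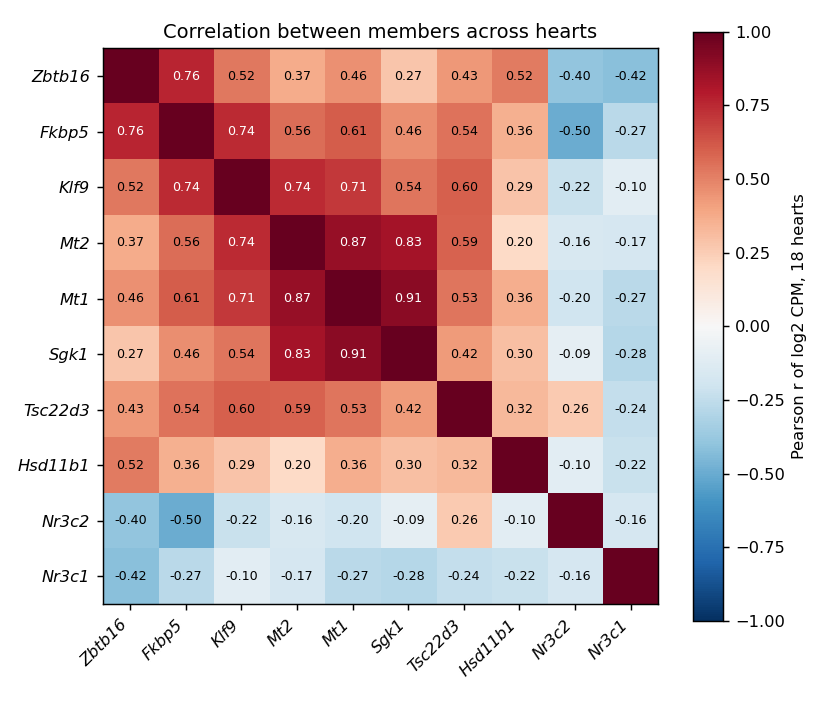
Pearson r of log2 CPM between the 10 genes over 18 hearts, printed in each cell and coloured from -1 (blue) to 1 (red). Sgk1, Mt1 and Mt2 form the darkest block (0.83 to 0.91), and 16 of the 17 pairs with a receptor are below 0 on this scale, against 9 in log2 FPKM.

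Over all hearts, Zbtb16 went most with Fkbp5 among the members, with r = 0.76 and Spearman's rho = 0.73, and r = 0.66 without blank hearts 30 and 33, the farthest from its median. Within the groups, as deviations from their means, r was 0.55. With Sgk1 it was 0.27 over all hearts and 0.56 within the groups, with Mt1 0.46 and 0.60, and with Nr3c1 -0.42 and -0.47. Within the groups Mt1 thus came before Fkbp5, while Sgk1 (0.556) and Fkbp5 (0.551) were nearly level, with heart 30 included. Without deviations and without hearts 30 and 33, r was 0.25 with Sgk1, 0.45 with Mt1 and -0.19 with Nr3c1. The value with Tsc22d3 depended on hearts 30 and 33, 0.43 with them and 0.84 without, above that of Fkbp5. Blank heart 30 had the highest Zbtb16 of all and, at 36.9 CPM, the third lowest Tsc22d3.

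**Figure D5:**
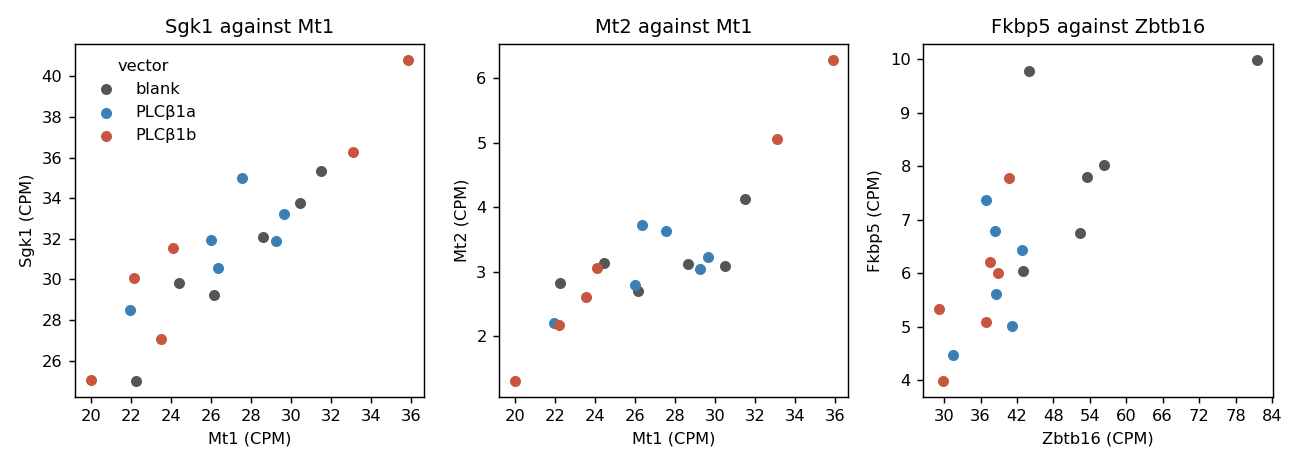
CPM of Sgk1 and of Mt2 against Mt1, and of Fkbp5 against Zbtb16, with 1 point for each of 18 hearts coloured by vector. In the plots with Mt1 the hearts follow 1 line whatever their vector, with PLCβ1b hearts 4 and 16 at its ends, and in the third the blank hearts lie to the right, heart 30 farthest.

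Among all 11144 genes tested with a mean of at least 1 CPM, those whose deviations from the group means were most like Zbtb16 were Pes1 (r = 0.88), Phka1 (0.85), Plod1 (0.84), Nfatc1 (0.84), Slc43a3 (0.84), Rnf40 (0.84), Xdh (0.83), Dhx8 (0.82), Rc3h1 (0.81) and Naa30 (0.81). The least like were Glt25d2 (-0.84), Ctps2 (-0.82), Ints9 (-0.80), Cxcr4 (-0.79) and Dctn2 (-0.79). Without taking deviations, r over the 18 hearts was 0.82 for Pes1, 0.84 for Plod1, 0.51 for Phka1, 0.36 for Nfatc1 and 0.20 for Naa30. On that scale without blank hearts 30 and 33 it was 0.66, 0.72, 0.33, 0.05 and -0.02. For Slc43a3, Rnf40, Xdh, Dhx8 and Rc3h1, r over the 18 hearts was 0.75, 0.44, 0.85, 0.29 and 0.38. Without hearts 30 and 33 these were 0.52, 0.34, 0.65, 0.17 and -0.01. Of the further response genes, Fam107a (r = 0.83), Pik3r1 (0.82), Klf15 (0.68), Ddit4 (0.56) and Glul (0.55) were the most like Zbtb16 over all 18 hearts, and Dusp1 (-0.44), Angptl4 (-0.33), Per1 (-0.30), Foxo1 (-0.29) and Txnip (-0.22) the least. Without hearts 30 and 33, the first 5 had 0.79, 0.62, 0.72, 0.52 and 0.24, and the last 5 had -0.18, -0.08, 0.39, -0.30 and -0.07.

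Markers of other cell types were summed in FPKM in each heart beside these results. The 7 fibroblast markers summed to 178 to 209 in blank, 176 to 222 in PLCβ1a and 188 to 220 in PLCβ1b hearts. The 3 red cell markers measured, which include blood left in the vessels, summed to 246 to 382, 357 to 514 and 280 to 479. The 5 atrial markers summed to 71.2 to 104, 45.2 to 121 and 55.5 to 88.4. In PLCβ1a heart 21 the 6 adipocyte markers summed to 4.79 and the 5 skeletal muscle markers to 11.2. The highest sums in blank and PLCβ1b hearts were 1.68 and 1.93 for adipocyte and 1.18 and 1.47 for skeletal muscle markers. In CPM, heart 21 was also the lowest PLCβ1a heart for Zbtb16 (31.4 CPM), Fkbp5, Tsc22d3, Sgk1, Klf9, Mt1 and Mt2. In FPKM, the scale of the marker sums, this held for Zbtb16, Sgk1 and Mt1 but not for Fkbp5, Tsc22d3, Klf9 or Mt2. On neither scale was it the lowest for Nr3c1, Nr3c2 or Hsd11b1. The ranges of these sums, and of the endothelial, macrophage and smooth muscle sums, overlapped between the groups, which does not show equal composition. At an unadjusted p below 0.05, the fibroblast genes Lum and Col3a1 and the endothelial gene Cdh5 were higher in both PLC groups. The muscle gene Actc1 was lower in both, and none of these was called. With log2 CPM of Zbtb16 over 18 hearts, the log2 fibroblast sum had r = -0.49 (-0.48 as deviations from group means). For other cell types r ran from -0.32 (skeletal muscle) to 0.29 (macrophage). Zbtb16 in FPKM overlapped between blank hearts (9.19 to 18.4) and PLCβ1a hearts (7.02 to 9.33). It did not between blank and PLCβ1b hearts (6.18 to 8.60). Among single markers, the red cell gene Alas2, the first enzyme of haem synthesis there, was called for PLCβ1a by the exact test (log2 fold change 0.64, FDR 0.0609), and the atrial gene Sln, an inhibitor of the calcium pump, had 0.652 to 1.28 CPM in PLCβ1b hearts and 1.48 to 1.76 in blank hearts (FDR 0.748). The immediate early genes, which respond to handling and stress, summed to 34.7 to 65.7 in blank, 52.1 to 169 in PLCβ1a and 46.4 to 98.7 in PLCβ1b hearts. Over the 11 genes the median log2 fold change was 0.44 for PLCβ1b and 0.61 for PLCβ1a. With all hearts none was called. At an unadjusted p below 0.05 there were 0 and 3, all higher, where 7.41% and 8.58% of all genes tested lay below that p. Cyr61, 1 of the 11 genes but not below that p in either group, was called for PLCβ1b without PLCβ1a heart 7 (0.39 on the log2 scale, FDR 0.0454). That heart is in neither group of the comparison, and with all hearts the fold change was also 0.39 (FDR 0.772). Of the clock genes, Npas2 was called for PLCβ1b without blank heart 30 (1.30, FDR 0.00958). The part of these genes in the levels of the members was not tested.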

How the data were processed

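Paired, strand-specific libraries of rRNA-depleted RNA were aligned by the authors to mm10 (TopHat2 2.0.10) and counted per gene by HTSeq (union mode). The counts they deposited are raw whole numbers. The deposited FPKM are normalized for length and depth by the authors, and the submitters' processing notes name Cufflinks 2.1 without a role. The deposited gene models, read here for positions and exon lengths, hold no measured values.

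Counts were fitted in edgeR 4.0.16 (R 4.3.3) with TMM scaling, filterByExpr (minimum count 10, minimum total 15, smallest group 6) and 1 quasi-likelihood model of 3 groups, with Benjamini-Hochberg adjustment over 12281 genes and a call at an FDR below 0.1. Dispersion estimation was robust, as in earlier processing of these counts, since the design did not specify it. Log2 CPM used a prior count of 2. Alternatives were DESeq2 1.42.0, edgeR's exact test, upper-quartile scaling, no filter, 37 mitochondrial genes left out, only the groups compared, limma 3.58.1 on log2(FPKM + 0.1) and log2(FPKM + 1), an FDR below 0.05, and each heart left out. The default estimation, each heart left out with it, and blank heart 30 left out in DESeq2 and the exact test were added after seeing the data. Each test was checked on counts drawn with known changes.

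The members and gene lists were chosen with earlier results of these data known. The text names the members, list genes called in any comparison under any setting, the 10 genes most and 5 least like Zbtb16, and the 5 response genes at either end of that order. Other genes were named after their values were seen. The mouse numbers are not shared between groups. The 18 hearts are separate mice, so p-values set group differences against the spread between mice. Those against blank also take in any difference between the blocks of mouse numbers. Figures used Python 3.11.15 and matplotlib 3.10.9.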

Additional observations from a re-analysis of the deposited data

Results flagged for a closer look

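In 60 checks of the highest and lowest heart of a group (10 genes, 3 groups, CPM and FPKM), of which chance marks about 1 in 20, a single heart lay far from the rest in 2. Zbtb16 had 81.5 CPM in blank heart 30, with the next blank heart at 56.3 and the lowest at 43.0, a gap of 0.654 of the group's range. Mt2 had 4.13 CPM in blank heart 33, with the next at 3.14 and the lowest at 2.70, a gap of 0.693. The values of Zbtb16 without heart 30 stand beside its result, and the cause of either value was not tested.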

How the results depend on the processing

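No paired analysis was possible because the groups share no mouse numbers. With all hearts, the sign and the side of the threshold of the members' fold changes were kept in 261 of 270 fits under other settings. The exceptions were Zbtb16 and Mt2. Members called were 1 instead of 0, Zbtb16, for PLCβ1b in DESeq2, the exact test and the default estimation (1 each) and for PLCβ1a in the exact test and the default estimation (1 each). Of the other response genes, 1 was called for PLCβ1b, Pik3r1, in DESeq2 and without a filter on low counts. For Mt2, limma gave -0.0882 on log2(FPKM + 0.1) and -0.0685 on log2(FPKM + 1) for PLCβ1b against blank, and -0.0142 and -0.00150 between the PLC groups. An FDR below 0.05, upper-quartile scaling, mitochondrial genes left out and only the groups compared changed no call of a member.

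With 1 heart left out, in the main model and the added fits together, members called ranged from 0 to 1 for each PLC group against blank, Zbtb16 each time and never in the main model. Other response genes called ranged from 0 to 2 for PLCβ1b (Fam107a and Klf15 without PLCβ1b heart 16, Pik3r1 without blank heart 26) and from 0 to 1 for PLCβ1a (Sesn1 without PLCβ1a heart 9). Fold changes that changed sign were close to 0. For PLCβ1b against blank they ranged from -0.0531 to 0.12 for Nr3c2, -0.0513 to 0.0940 for Sgk1, -0.16 to 0.0174 for Mt1 and -0.18 to 0.26 for Mt2. For PLCβ1a against blank they ranged from -0.0276 to 0.0018 for Nr3c1, -0.0100 to 0.0815 for Sgk1, -0.0797 to 0.0181 for Mt1 and -0.0923 to 0.0686 for Mt2. Between the PLC groups they ranged from -0.0076 to 0.0837 for Hsd11b1, -0.18 to 0.0208 for Fkbp5, -0.0905 to 0.0555 for Sgk1, -0.10 to 0.0099 for Klf9, -0.13 to 0.0506 for Mt1 and -0.15 to 0.29 for Mt2. The causes were not tested. Mt2 and Hsd11b1 had the fewest counts of the members.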
